A study of Mus musculus with 8 samples.

Results

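The enzymes and binding proteins that write, remove and read DNA methylation were followed in the neonatal mouse cortex, with and without the BAF155 and BAF170 subunits of the BAF chromatin remodelling complex. The genes were taken by symbol, from a list drawn up with earlier results of these data known: the writers Dnmt1, Dnmt3a, Dnmt3b and Uhrf1, the erasers Tet1, Tet2 and Tet3, and the readers Mbd2 and Mbd3. They are 9 of the 48709 gene identifiers counted in each sample. All 9 passed the filter on low counts, which left 16525 genes in the test.

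RNA from cortex at postnatal day 3 was sequenced in 4 double knockout (dcKO) and 4 control samples of the C57BL/6J strain. In the dcKO, both floxed copies of BAF155 and of BAF170 (BAF155 fl/fl; BAF170 fl/fl; hGFAP-Cre pos/+) are deleted where a human GFAP promoter drives Cre, which is in the radial glial progenitors of the dorsal telencephalon and hence in the cells born from them. According to the methods of the study, control brains carried the same Cre with 1 floxed copy of each gene (BAF155 fl/+; BAF170 fl/+; Cre pos/+), while the titles of the samples call them WT. Cells in which Cre was never active, such as microglia, vessels and neurons that migrated in, remained in the tissue, and the mutants did not survive long after birth.

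DNA methylation in mammals sits mainly on cytosines followed by guanine. Dnmt3a and Dnmt3b place new methyl groups, Dnmt1 copies them onto the new strand after replication, and Uhrf1 brings Dnmt1 to hemimethylated sites. The Tet dioxygenases oxidise methylcytosine to hydroxymethylcytosine and further, a form that is abundant in neurons. Mbd2 binds methylated CpG and recruits the nucleosome remodelling and deacetylase complex (NuRD), while its relative Mbd3 is a core subunit of that complex and binds methylated DNA poorly. Dnmt3a and Tet3 are both known for their part in the postnatal maturation of neurons.

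Libraries held 21126713 to 32110285 counted reads. Smarcc1, which encodes BAF155, fell from 159 ± 11.2 to 81.2 ± 5.9 CPM (counts scaled to library size with TMM, mean ± SD, n = 4 per group), a log2 fold change of -0.97 (SE 0.08, adjusted p = 5.44e-06 by the edgeR quasi-likelihood test with Benjamini-Hochberg adjustment). Smarcc2, which encodes BAF170, fell from 483 ± 14.7 to 283 ± 28.2 CPM (log2 fold change -0.77, SE 0.08, edgeR adjusted p = 2.28e-05). Markers of cortical neurons were present in every sample, but the make-up of the tissue differed between the groups. Of 10 cortical neuron markers 8 were lower in dcKO and 0 higher, with a summed level of 4842 to 5920 CPM in control and 3172 to 3410 CPM in dcKO. Most of this sum was Tubb3, at 3289 ± 393 CPM in control and 2180 ± 149 CPM in dcKO. Of 7 markers of oligodendrocyte precursors 6 were lower. Of 8 interneuron markers 7 were higher (596 to 614 against 914 to 994 CPM), as were 7 of 9 microglial markers (126 to 163 against 229 to 276 CPM). Of 8 striatal markers 5 were higher (122 to 175 against 364 to 703 CPM). Of the 19 other ways of processing the counts, the striatal call of Penk was lost in 10 and that of Rgs9 in 8. That of Drd2 was lost in 2 and that of Tac1 in 1, while Ppp1r1b kept its call in all. Of 6 endothelial markers 4 were lower (178 to 235 against 97.8 to 173 CPM). Markers of the choroid plexus summed to 610 and 1171 CPM in dcKO replicates 1 and 2, to 20.7 and 4.05 CPM in dcKO replicates 3 and 4, and to 4.05 to 13.3 CPM in control. In bulk tissue, fewer cells of a type and less RNA per cell cannot be told apart, and the part of these differences in the values that follow was not tested.

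Only 1 of the 9 genes passed the test. Tet3 was lower in dcKO, at 0.754 times the control level, and the other 8 genes had estimates between 0.887 and 1.22 times control, and every one of their 95% intervals contained 1. Among all genes tested, 37.5% differed at an adjusted p under 0.05 (18.9% lower and 18.6% higher in dcKO). Lower genes made up 50.4% of these calls, and 31.4% when counts were scaled by library totals, which moved the median of all genes by 0.12 on the log2 scale. Thus 1 called gene of 9, or 11.1%, was below the share over the whole transcriptome. The median size of the difference, whatever its sign, was 0.07 on the log2 scale for the 9 genes and 0.29 for all genes tested. The groups did not overlap for 1 of the 9 genes, Tet3, against 34.4% of all genes. At an unadjusted edgeR p under 0.05 the count was also 1, and DESeq2 and limma-voom each called 1 gene lower and 0 higher.

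**Figure D1:**
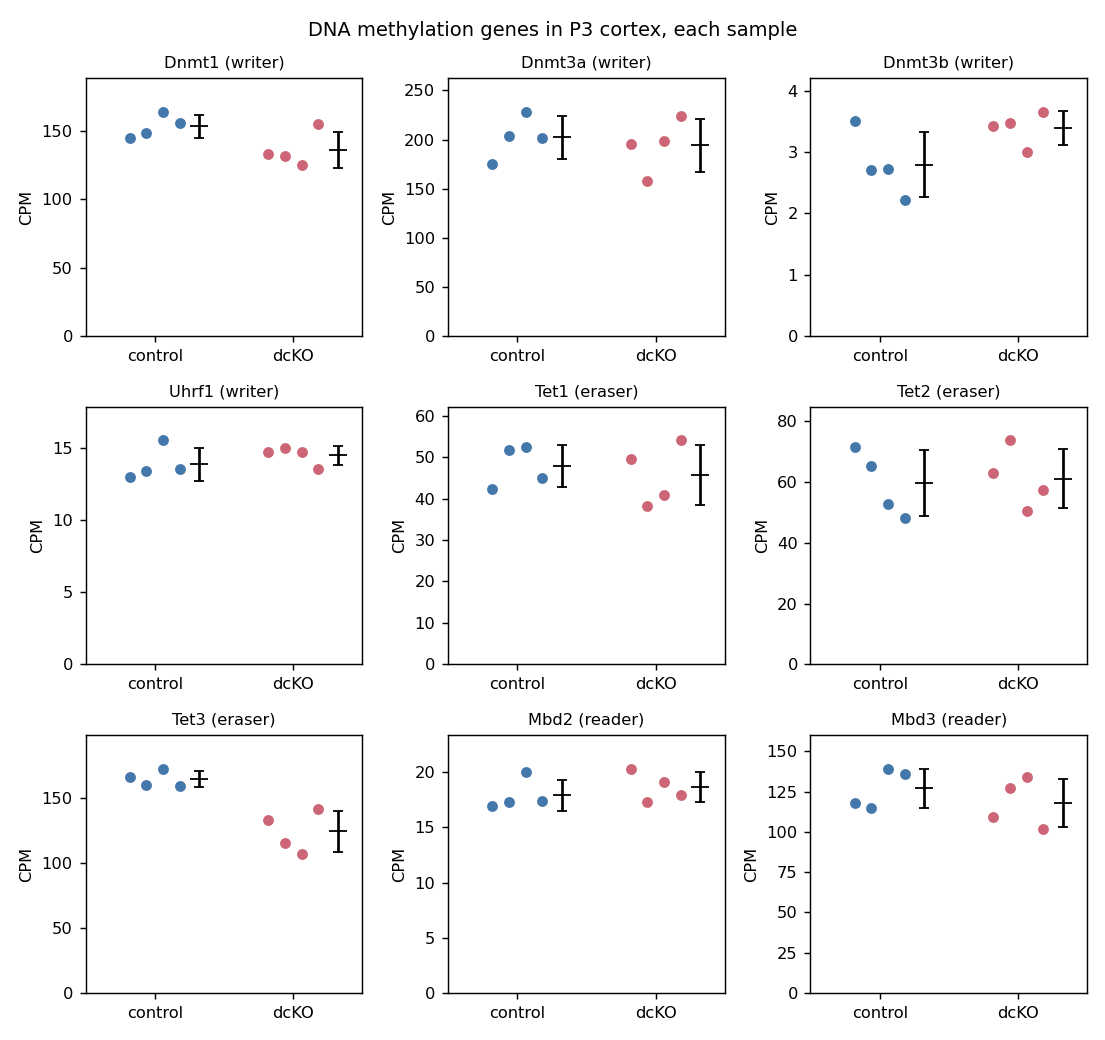
Level of the 9 genes in each of the 4 control and 4 dcKO samples, in CPM, with 1 panel per gene and a bar at the group mean with its SD. Tet3 is the gene in which all dcKO samples (107 to 141 CPM) lie below all control samples (159 to 172 CPM), and in the other 8 panels the groups overlap.

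Among the writers, Dnmt1 showed the largest negative estimate but did not pass the test. The maintenance methyltransferase measured 145, 149, 164 and 156 CPM in the control samples, given here and for the other genes in the order of replicates 1 to 4, against 133, 132, 125 and 155 CPM in the dcKO samples. dcKO replicates 1, 2 and 3 lay below every control sample, and dcKO replicate 4 lay among the controls. The fold was 0.887 (95% interval 0.783 to 1), with a log2 fold change of -0.17 (SE 0.08, edgeR adjusted p = 0.115). Without dcKO replicate 4 the log2 fold change was -0.23 and the edgeR adjusted p 0.0205, while with the offset for GC content and length the log2 fold change was 0.02 (edgeR adjusted p = 0.853), so neither call nor direction was stable for Dnmt1. The gene lies on chr9:20907209-20959888 (mm10, minus strand).

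Uhrf1, the partner that recognises hemimethylated DNA, was expressed at a lower level, at 13, 13.4, 15.5 and 13.5 CPM in control and 14.7, 15, 14.7 and 13.5 CPM in dcKO. The values of the groups were intermingled. The log2 fold change was 0.06 (95% interval -0.16 to 0.29, edgeR adjusted p = 0.66).

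Dnmt3a (chr12:3806007-3914443, plus strand) was the most abundant of the 9 genes by counts and did not separate the groups. Its levels were 175, 204, 228 and 202 CPM in control and 195, 158, 199 and 224 CPM in dcKO, so that the lowest and the highest sample of the 8 were a dcKO and a control library. The log2 fold change was -0.06 (95% interval -0.30 to 0.18), or 0.96 times control, and the edgeR adjusted p was 0.703. Of its exon bases 0.799% are shared with the antisense gene Dnmt3aos.

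Dnmt3b, the de novo methyltransferase best known from the early embryo, was the scarcest of the 9, with 55 to 121 reads per library. Control samples measured 3.5, 2.71, 2.72 and 2.22 CPM and dcKO samples 3.42, 3.47, 3 and 3.65 CPM. Control replicate 1 lay among the dcKO values and the other controls below them. The estimate was the largest positive one among the 9 genes, 1.22 times control, but its interval ran from 0.93 to 1.6 (log2 fold change 0.29, SE 0.18, edgeR adjusted p = 0.23). Whether a difference of this size could have been detected at this depth and spread was not tested.

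The erasers were represented by all Tet genes, and 1 of the 3 was called, or 33.3%, near the 37.5% of all genes tested. Tet3 was the most abundant of them in both groups, and it was the one that fell. The control libraries held 166, 160, 172 and 159 CPM of Tet3, and the dcKO libraries 133, 115, 107 and 141 CPM. The highest dcKO sample, replicate 4, lay below the lowest control sample. The fold was 0.754 (95% interval 0.657 to 0.866), with a log2 fold change of -0.41 (SE 0.09, edgeR adjusted p = 0.00456). An exact permutation test over the 70 arrangements of the samples gave a two-sided p of 0.0286, the smallest that 4 against 4 allow. In the order of all genes by p, Tet3 stood at rank 2671.

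The call for Tet3 held in 18 of the 19 other ways of processing the counts, with a log2 fold change of -0.46 to -0.34 when any single library was left out. Within lane 5 alone, which holds replicates 1 and 2 of each group, it was -0.41 (edgeR adjusted p = 0.0176). Without dcKO replicates 1 and 2, the libraries with choroid plexus RNA, it was -0.40 (edgeR adjusted p = 0.0493). The exception was a fit with an offset for the GC content and length of each gene, in which the log2 fold change of Tet3 was -0.15 (SE 0.06) and the edgeR adjusted p 0.0749.

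Tet1 and Tet2, the other dioxygenases, gave estimates near 1. Tet1 measured 42.4, 51.8, 52.5 and 44.9 CPM in control and 49.5, 38.3, 40.9 and 54 CPM in dcKO, so that dcKO samples were both lowest and highest (log2 fold change -0.07, 95% interval -0.32 to 0.19, edgeR adjusted p = 0.686). For Tet2 the control values were 71.5, 65.2, 52.8 and 48.1 CPM and the dcKO values 62.7, 73.5, 50.5 and 57.3 CPM. In both groups replicates 1 and 2, from lane 5, held more Tet2 than replicates 3 and 4, from lanes 6 and 7, and this spread within groups was wider than the difference between them (log2 fold change 0.04, 95% interval -0.27 to 0.34, edgeR adjusted p = 0.85). The lower bounds of the intervals were 0.799 times control for Tet1 and 0.832 times control for Tet2.

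The start sites of the Tet genes are shown because 1 of the 3 was called. That share (33.3%) was near the 37.5% of all genes tested and does not set the family apart. Windows of 300 bases around annotated starts (250 before, 50 after) were taken from RefSeq on GRCm38.p6 for 8 of the 9 genes, with several starts for some, and CpG dinucleotides, the substrate of the proteins described here, were counted. The window of Tet2 held 57 CpG, more than 99.8% of the 32841 windows of all genes, that of Tet3 22 (more than 76.9%) and that of Tet1 17 (more than 68.6%), against a median of 7. Each Tet gene had 1 window, which lies inside the span of the gene in GENCODE. These spans reach upstream to chr3:133545139 for Tet2, chr6:83459084 for Tet3 and chr10:62908996 for Tet1, and starts further upstream were not examined. The stretches that lie outside annotated exons are printed 5′ to 3′ on the strand of the gene, with each CpG in capitals: Tet2 at chr3:133544391-133544640 with 51 CpG in 250 bases, Tet3 at chr6:83441679-83441754 with 9 in 76, and Tet1 at chr10:62887325-62887412 with 6 in 88, all on the minus strand.
Tet2: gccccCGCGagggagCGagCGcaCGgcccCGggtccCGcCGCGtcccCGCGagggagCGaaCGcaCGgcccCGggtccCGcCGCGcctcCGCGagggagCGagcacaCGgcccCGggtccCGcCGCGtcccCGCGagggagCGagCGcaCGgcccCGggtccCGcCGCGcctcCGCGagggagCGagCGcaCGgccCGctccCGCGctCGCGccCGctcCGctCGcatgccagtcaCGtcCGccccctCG
Tet3: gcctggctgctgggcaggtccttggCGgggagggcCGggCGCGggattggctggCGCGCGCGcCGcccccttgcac
Tet1: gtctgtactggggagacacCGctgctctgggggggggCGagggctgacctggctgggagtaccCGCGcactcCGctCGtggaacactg
These are reference letters, and the methylation of these bases was not measured in the samples.

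The readers Mbd2 and Mbd3 both gave estimates close to control. Mbd2 (chr18:70568189-70626131, plus strand) ranged from 16.9 to 20 CPM in control and from 17.3 to 20.3 CPM in dcKO, with a log2 fold change of 0.06 (95% interval -0.16 to 0.28, edgeR adjusted p = 0.683). Mbd3 (chr10:80392539-80399550, minus strand) measured 118, 115, 139 and 136 CPM in control and 109, 127, 134 and 102 CPM in dcKO, with a log2 fold change of -0.10 (95% interval -0.32 to 0.12, edgeR adjusted p = 0.446). The groups overlapped for both genes, and for Mbd3 dcKO replicates 1 and 4 lay below all controls.

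**Figure D2:**
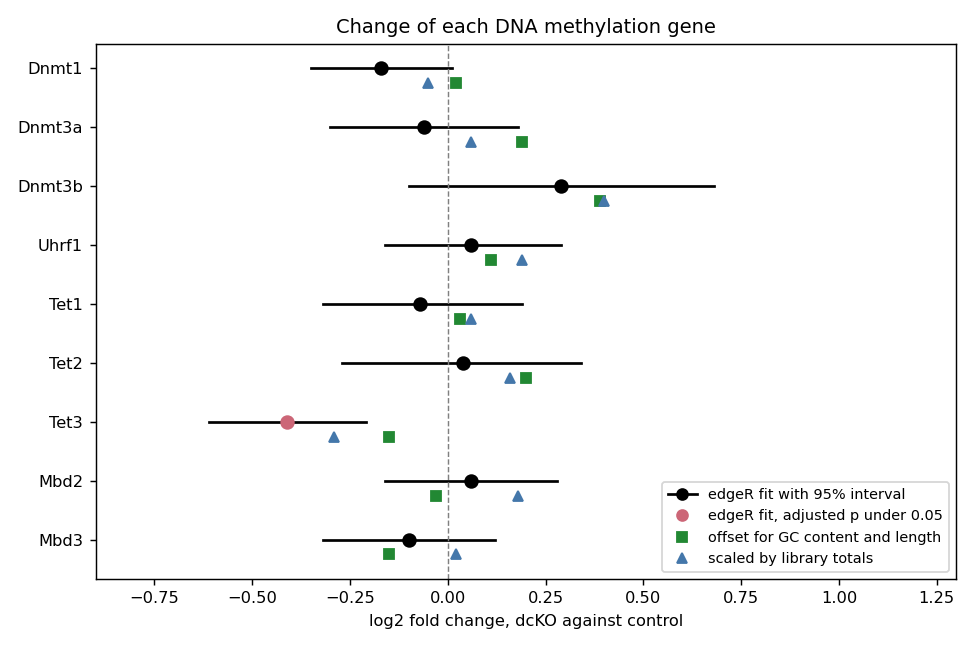
Log2 fold change (dcKO against control) of each of the 9 genes with its 95% interval from the edgeR fit (circles, with the called gene in red), and below it the estimates with an offset for GC content and length (squares) and with scaling by library totals (triangles). Tet3 (-0.41, interval -0.61 to -0.21) is the gene whose interval lies apart from 0, and its estimate is -0.29 with library totals and -0.15 with the offset.

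Transcript length moved with the direction of change over the whole data set. Genes were divided into 5 groups of nearly equal number by the length of their longest annotated transcript. In the group of shortest genes (56 to 1844 bases) 5.12% were lower and 27.8% higher in dcKO, with a median log2 fold change of 0.27. In the group of longest genes (5156 to 123179 bases) 33.5% were lower and 10.2% higher, with a median of -0.14. Dnmt1, Dnmt3a, Tet1, Tet2 and Tet3 all belong to the longest genes, and Tet3, with a longest transcript of 10904 bases, lay below the median of that group while Tet1 (14369 bases) and Tet2 (9179 bases) lay above it. Mbd3, the shortest of the 9 at 1662 bases, belongs to the group whose median was highest. GC content moved with the direction as well, with 12.9% of genes lower and 23.8% higher in the lowest of 5 groups by GC and 22.5% lower and 14.8% higher in the highest, and Tet3 belongs to the second highest group. The offset fit corrects for both properties together, so the part of length alone in the difference of Tet3 was not tested.

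**Figure D3:**
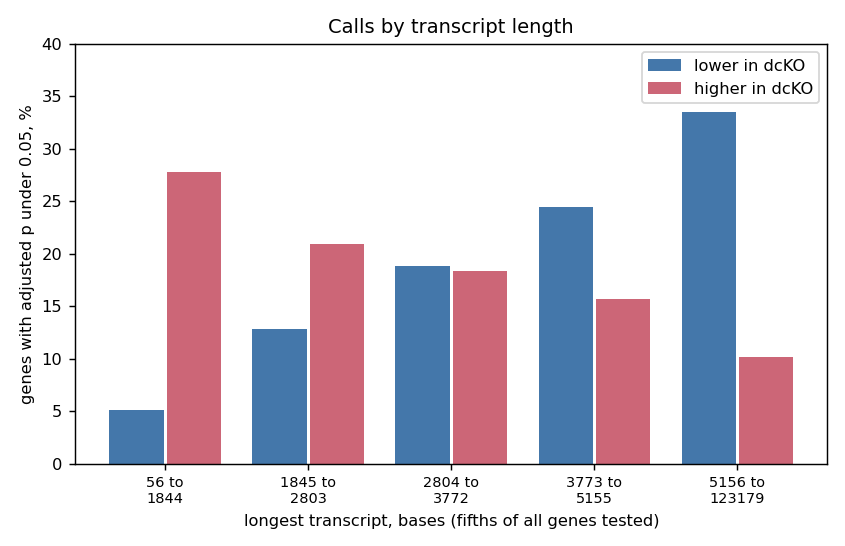
Percent of genes lower and higher in dcKO (edgeR adjusted p under 0.05) in 5 groups of 16480 genes ordered by the length of the longest transcript. Bars give lower genes in blue and higher genes in red. The share of lower genes climbs from 5.12% in the shortest to 33.5% in the longest group, which holds Dnmt1, Dnmt3a and the Tet genes.

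Levels of different genes were compared per kilobase of exon. In control cortex Mbd3 was highest at 63.9 ± 5.99 CPM per kb, followed by Dnmt1 at 20.8 ± 1.11, Dnmt3a at 12.2, Tet3 at 9.84 ± 0.367 and Mbd2 at 5.57 CPM per kb. Tet2 (3.52), Uhrf1 (3.25) and Tet1 (3.1 CPM per kb) followed close together. Dnmt3b was lowest at 0.546 CPM per kb. When the longest transcript was used in place of all exons the order was the same, but Tet2, at 6.47 CPM per kb, stood further above Uhrf1 (3.86) and Tet1 (3.33 CPM per kb), so the closeness of these genes depends on the length used. In dcKO the levels were 59.5 ± 7.65 for Mbd3, 18.5 ± 1.74 for Dnmt1, 11.7 for Dnmt3a and 7.42 ± 0.953 CPM per kb for Tet3.

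Balances within families were read as ratios of these levels in each sample. For Tet3 to Tet1 the log2 ratio stood at 1.86, 1.52, 1.60 and 1.71 in the control samples, and at 1.31, 1.47, 1.27 and 1.28 in the dcKO samples. All dcKO samples lay below all control samples, the nearest being dcKO replicate 2 and control replicate 2. On the linear scale, per kilobase of exon, Tet3 was thus 3.19 times as abundant as Tet1 in control and 2.52 times in dcKO. These multiples depend on the length used. Per kilobase of the longest transcript, Tet3 and Tet1 stood at 15.1 and 3.33 CPM in control and at 11.4 and 3.18 CPM in dcKO. The ratios were not corrected for GC content. With the offset for GC content and length the log2 fold change was -0.15 for Tet3 and 0.03 for Tet1. The log2 ratio of Tet3 to Tet2 was 1.23, 1.31, 1.72 and 1.74 in control and 1.10, 0.66, 1.10 and 1.32 in dcKO, and these groups overlapped.

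The other ratios did not separate the groups. The log2 ratio of Dnmt3a to Dnmt3b was 4.49 ± 0.38 in control and 4.13 ± 0.24 in dcKO, that of Dnmt3a to Dnmt1 was -0.78 ± 0.09 and -0.67 ± 0.17, and that of Mbd2 to Mbd3 was -3.52 ± 0.10 and -3.35 ± 0.22 (SD, n = 4 per group). In both groups the cortex therefore held far more Dnmt3a than Dnmt3b, and less Mbd2 than Mbd3, per length of transcript.

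**Figure D4:**
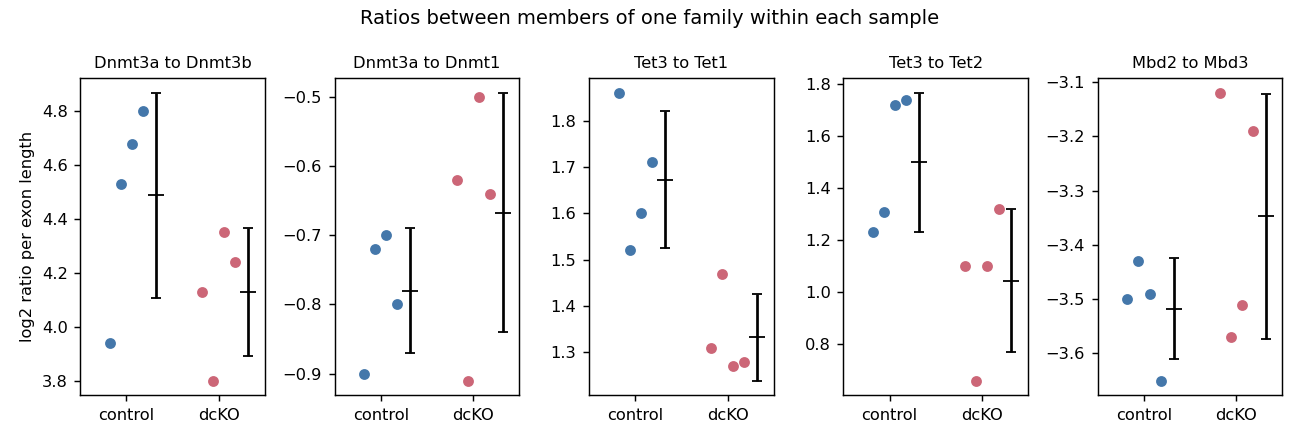
Log2 ratio of the levels per kilobase for 5 pairs of genes within families, 1 point per sample for control and dcKO, with the mean and SD of each group (the vertical axes differ and do not start at 0). The ratio of Tet3 to Tet1 is the pair in which the dcKO samples (1.27 to 1.47) all lie below the control samples (1.52 to 1.86).

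Genes with the most similar variation were sought by the correlation of their log2 CPM, after the group means were removed, over the 8 samples and 14609 genes. These correlations are descriptions over few libraries that share depth and composition. Tet3 varied most like Soga1 (r = 0.996) and Atp2b3 (r = 0.991), Dnmt1 most like Supt5 (r = 0.998), Dnmt3a most like Yy1 (r = 0.979) and Tet1 most like Utp20 (r = 0.998). Mbd2 varied most like the collagen genes Col4a1 (r = 0.986) and Col4a2 (r = 0.972).

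The wider methylation machinery was described by 8 lists that hold 118 genes, of which 103 were tested. In dcKO 8 were lower and 23 higher, or 30.1% called, which is below the 37.5% of all genes, and the median log2 fold change was 0.11 against 0.02 for all genes. The called share was 55.6% for maintenance partners, 46.2% for NuRD subunits and 33.3% for genes of active demethylation. It was 31.8% for cell cycle genes, 28.6% for germline genes, 22.2% for other readers, 18.2% for de novo partners and 7.14% for the methyl donor cycle. Among all genes tested 18.9% were lower and 18.6% higher. Of the 31 called genes, 21 stayed called whichever single library was left out, and 6 were lost with the offset for GC content and length. The count of higher genes was 39 when counts were scaled by library totals, 14 within lane 5 alone and 10 without dcKO replicates 1 and 2.

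Partners of maintenance methylation were called in 5 of 9 tested genes, all higher (0 lower, median log2 fold change 0.27). Cdca7l, a paralogue of the activator Cdca7 of the remodeller Hells, rose most, from 2.75 ± 0.277 to 5.15 ± 0.562 CPM (log2 fold change 0.91, SE 0.16, edgeR adjusted p = 0.000982), although 19.7% of its exon bases overlap Dnah11. Lig1, the DNA ligase that seals replicated strands, rose from 33.9 ± 3.01 to 44.5 ± 4.03 CPM (log2 fold change 0.39, SE 0.10, edgeR adjusted p = 0.00734), a call lost within lane 5 alone and without dcKO replicates 1 and 2. Uhrf2, the paralogue of Uhrf1, measured 50.2 ± 2.02 and 60.5 ± 7.1 CPM, with an edgeR adjusted p of 0.0365 that became 0.118 without dcKO replicate 1, and the call was also lost without dcKO replicate 4, without control replicate 2, 3 or 4 and with the offset for GC content and length (edgeR adjusted p = 0.0521). The replication clamp Pcna, at 34.6 ± 1.24 and 41.7 ± 4.61 CPM (edgeR adjusted p = 0.039), and the histone methyltransferase Ehmt2, at 339 ± 22.1 and 399 ± 38.5 CPM (edgeR adjusted p = 0.0413), were no firmer. Pcna kept its call in 1 and Ehmt2 in 2 of the 8 fits that each left out 1 library, and with the offset for GC content and length the log2 fold change of Pcna was -0.01. Usp7, the deubiquitinase that stabilises Dnmt1 and Uhrf1, measured 193 ± 11.7 and 176 ± 18 CPM (log2 fold change -0.13, 95% interval -0.31 to 0.06, edgeR adjusted p = 0.265). Hells itself measured 9.84 ± 1.18 and 12.1 ± 1.11 CPM and did not pass (edgeR adjusted p = 0.08), and Dppa3 was at 0 in every sample, where the floor of 3 counts corresponds to 0.0906 to 0.148 CPM.

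Of 22 cell cycle and replication genes 7 were also higher and 0 lower (median log2 fold change 0.22), while their summed level was 359 to 411 CPM in control and 395 to 440 CPM in dcKO. Thymidylate synthase Tyms rose from 6.29 ± 0.515 to 9.69 ± 1.46 CPM (log2 fold change 0.62, edgeR adjusted p = 0.00472) and the helicase subunit Mcm7 from 35.4 ± 3.51 to 46.8 ± 3.44 CPM (log2 fold change 0.40, edgeR adjusted p = 0.00584). Without dcKO replicates 1 and 2, the calls of 5 of these 7 genes (Mcm7, Cdk1, Bub1, Birc5 and Ccne2) were lost. Gins2, another replication factor, had a log2 fold change of 0.76 (edgeR adjusted p = 0.00165), but 67.3% of its exon bases overlap Gse1. The proliferation marker Mki67 did not follow, at 37.3 ± 6.63 and 33.8 ± 2.13 CPM (log2 fold change -0.14, 95% interval -0.40 to 0.12, edgeR adjusted p = 0.391). Progenitor markers did not move in a single direction. Of 6 tested markers of intermediate progenitors 3 were higher and 1 lower, with Neurog2 at a log2 fold change of 2.71 and Sstr2 at -1.58. The summed level of the intermediate progenitor markers was 61.8 to 68.5 CPM in control and 56.8 to 75.1 CPM in dcKO. Of 10 markers of radial glia and astrocytes 2 were higher, Pax6 (1.28) and Vim (0.58), and 0 lower. However, 5 of these 10 had negative estimates and the median was -0.04. The list of radial glia and astrocyte markers summed to 1898 to 1983 CPM in control and 1387 to 2950 CPM in dcKO, with dcKO replicate 3 highest. The part of these cells, or of replication, in the values of Lig1 and Pcna was not tested.

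Because Dnmt1 and Uhrf1 are textbook targets of E2F factors in dividing cells, their start windows were searched on both strands for the E2F-type words TTTCCCGC, TTTCGCGC, TTTGCCGC and TTTGGCGC, each of which contains at least 1 CpG and so overlaps the CpG counts given for the windows. Any of them occurred in 744 of 32841 windows, or 2.27%. The third window of Dnmt1 held 2 matches, 1 on each strand, the second window of Uhrf1 held 1, and the other windows of the 9 genes held 0. Short stretches around the matches are printed 5′ to 3′ on the strand of the gene with the match in capitals (RefSeq, GRCm38.p6): Dnmt1 at chr9:20952824-20952853 and chr9:20952574-20952601 on the minus strand, and Uhrf1 at chr17:56304117-56304146 on the plus strand.
Dnmt1, match read from the opposite strand: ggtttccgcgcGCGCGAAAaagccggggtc
Dnmt1, match on the gene strand: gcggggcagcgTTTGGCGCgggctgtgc
Uhrf1: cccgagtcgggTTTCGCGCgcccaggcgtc
These matches describe letters in the reference, and neither gene passed the test between the groups.

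Partners of de novo methylation were called in 2 of 11 tested genes, both lower (0 higher, median 0.02). This share of 18.2% was close to the 18.9% of all genes tested that were lower. Setd2, which writes the histone mark read by Dnmt3b, measured 153 ± 7.19 in control and 122 ± 18.1 CPM in dcKO (log2 fold change -0.32, SE 0.10, edgeR adjusted p = 0.0238). Nsd1, which writes the mark read by Dnmt3a, measured 214 ± 8.46 and 178 ± 22.8 CPM (log2 fold change -0.27, SE 0.09, edgeR adjusted p = 0.0351). Without dcKO replicate 2 the edgeR adjusted p was 0.0727 for Setd2 and 0.0993 for Nsd1. Both calls were also lost when counts were scaled by library totals (edgeR adjusted p = 0.134 and 0.214), and without control replicate 2 or 3, and that of Nsd1 without dcKO replicate 3 or control replicate 4. With the offset for GC content and length the log2 fold change was -0.11 for Nsd1 (edgeR adjusted p = 0.214) and -0.21 for Setd2 (edgeR adjusted p = 0.0402).

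**Figure D5:**
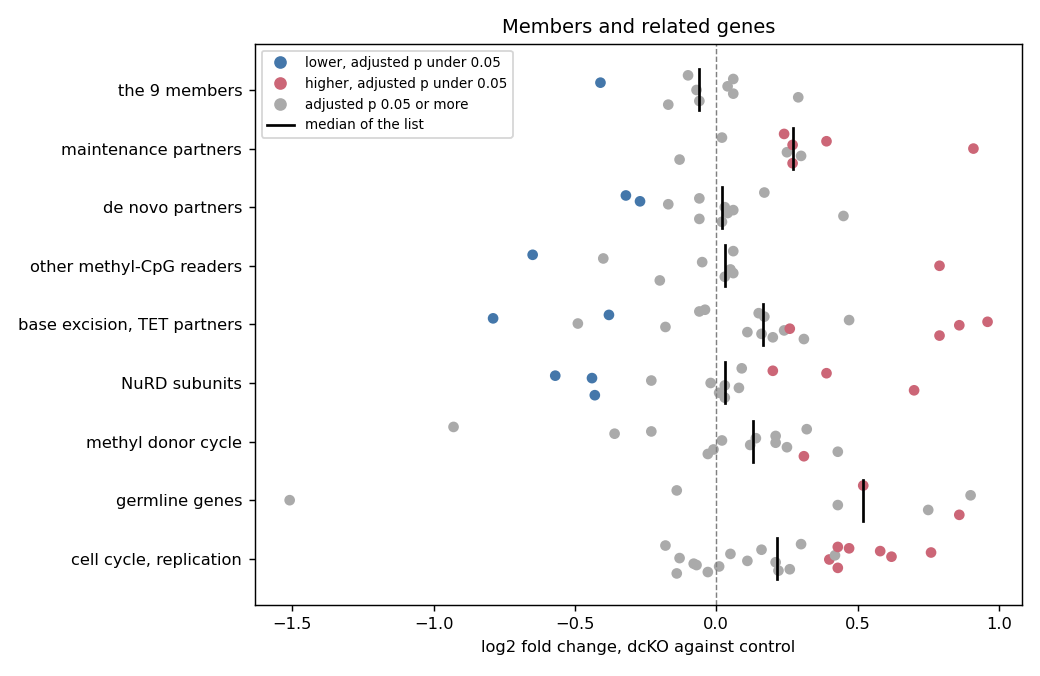
Log2 fold change (dcKO against control) of each tested gene, 1 point per gene, for the 9 genes and the 8 lists of related genes, with blue for lower and red for higher at an edgeR adjusted p under 0.05, grey for the rest and a bar at the median of the list. All 5 called maintenance partners lie right of 0 and both called de novo partners left of 0, while NuRD subunits are called on both sides. Among all genes tested 18.9% were lower and 18.6% higher.

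Among 9 other readers of methyl-CpG, 1 was lower and 1 higher (median 0.03). Zbtb38, a zinc finger protein that binds methylated DNA, fell from 61.9 ± 6.71 to 39.5 ± 1.2 CPM (log2 fold change -0.65, SE 0.09, edgeR adjusted p = 0.000183), in every setting tried. Mbd6, which carries a methyl-binding domain but is a partner of a deubiquitinase complex, rose from 45.6 ± 11.7 to 78.8 ± 13.6 CPM (log2 fold change 0.79, SE 0.18, edgeR adjusted p = 0.00674). Its control samples ranged from 34.4 to 61.5 and its dcKO samples from 59.7 to 91 CPM, so that the groups overlapped slightly, and the call was lost without dcKO replicates 1 and 2.

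Of 18 tested genes that act in active demethylation or with the Tet proteins, 2 were lower and 4 higher (median 0.16). Cxxc4, whose product binds Tet2 and lowers its protein level, fell from 121 ± 11.4 to 70.1 ± 5.73 CPM (log2 fold change -0.79, SE 0.09, edgeR adjusted p = 4.66e-05). Idh1, which makes the oxoglutarate that Tet enzymes consume, fell from 471 ± 29.8 to 362 ± 26.8 CPM (log2 fold change -0.38, SE 0.08, edgeR adjusted p = 0.00239). Both calls held in all settings tried. Gadd45g and Gadd45a, stress-responsive genes linked to demethylation, rose from 8.42 ± 1.82 to 16.3 ± 3.2 CPM (log2 fold change 0.96, edgeR adjusted p = 0.00114) and from 1.67 ± 0.126 to 3.04 ± 0.551 CPM (log2 fold change 0.86, edgeR adjusted p = 0.00438). Gadd45a shares part of its exon bases with the gene E230016M11Rik. Their relative Gadd45b had an estimate in the other direction, at 2.51 ± 0.145 and 1.77 ± 0.802 CPM, and did not pass (log2 fold change -0.49, edgeR adjusted p = 0.161). The glycosylase Neil1 rose from 6.17 ± 0.861 to 10.6 ± 2.15 CPM (log2 fold change 0.79, edgeR adjusted p = 0.00308). The repair scaffold Xrcc1 measured 32.5 ± 1.28 and 38.9 ± 2.13 CPM (edgeR adjusted p = 0.0256), and its call was lost without dcKO replicate 1 or 2 or control replicate 2 or 3, the adjusted p reaching 0.0712. Tdg, the glycosylase that removes the products of Tet oxidation, measured 9.26 ± 0.694 and 11.4 ± 3.77 CPM and did not pass (edgeR adjusted p = 0.222).

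The NuRD complex, to which Mbd2 and Mbd3 belong, showed called subunits in both directions, with 3 of 13 tested genes lower and 3 higher (46.2% called, median 0.03). The ATPase Chd4 fell from 236 ± 19.4 to 176 ± 15.2 CPM (log2 fold change -0.43, SE 0.09, edgeR adjusted p = 0.00236). The GATA zinc finger subunits fell as well, Gatad2b from 135 ± 8.88 to 91 ± 5.4 CPM (log2 fold change -0.57, edgeR adjusted p = 0.000162) and Gatad2a from 52.6 ± 3.02 to 38.8 ± 2.63 CPM (log2 fold change -0.44, edgeR adjusted p = 0.00158). The histone chaperone Rbbp4 rose from 197 ± 17.3 to 259 ± 28.2 CPM (log2 fold change 0.39, edgeR adjusted p = 0.00594), although 8.94% of its exon bases overlap Sync and 9.1% overlap Gm26722. The deacetylase Hdac1 rose from 6.64 ± 1.7 to 10.8 ± 1.75 CPM (log2 fold change 0.70, edgeR adjusted p = 0.0113). Rbbp7, at 131 ± 5.17 and 151 ± 9.85 CPM, was called at an edgeR adjusted p of 0.047, and this call was kept in 1 of the 8 fits that each left out 1 library, and was lost with DESeq2 and with the offset for GC content and length (log2 fold change 0.01, edgeR adjusted p = 0.866). With the offset Chd4 was at -0.21 (edgeR adjusted p = 0.0208) and Gatad2a at -0.29 (edgeR adjusted p = 0.0138) on the log2 scale. Hdac1 values overlapped between the groups. Chd3 and Hdac2 measured 808 ± 16.7 and 824 ± 86.4 CPM, and 220 ± 9.54 and 232 ± 5.01 CPM, with edgeR adjusted p of 0.803 and 0.398.

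In the methyl donor cycle 1 of 14 genes was called. Mat2a, which makes S-adenosylmethionine, measured 169 ± 17.4 and 210 ± 23.4 CPM (log2 fold change 0.31, SE 0.10, edgeR adjusted p = 0.0259). Its groups overlapped, and the call was lost without dcKO replicate 1, 2 or 4 or control replicate 3 or 4, the adjusted p reaching 0.102 without dcKO replicate 1. It was also lost with the offset for GC content and length (log2 fold change 0.20, edgeR adjusted p = 0.103).

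Germline genes that promoter methylation keeps silent in somatic cells were mostly scarce. Of 18 such genes 11 were too low to test, and Tex101, Asz1 and Magea4 were at 0 in every sample. Of the 7 tested, 2 were higher and 0 lower (median log2 fold change 0.52). Brdt, a testis bromodomain gene, rose from 16.8 ± 0.688 to 24.1 ± 1.68 CPM (log2 fold change 0.52, SE 0.09, edgeR adjusted p = 0.00125), in every setting tried. Dazl, a germ cell RNA-binding protein gene, rose from 1.53 ± 0.452 to 2.76 ± 0.424 CPM (log2 fold change 0.86, SE 0.23, edgeR adjusted p = 0.0112), a call lost within lane 5 alone. Promoter methylation itself was not measured in these samples.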

How the data were processed

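RNA was isolated with TRIZOL from 4 dcKO and 4 control cortex samples at postnatal day 3, and libraries were made with the TruSeq RNA v2 kit. The authors aligned reads to mm10 and deposited raw counts per Ensembl gene from featureCounts, 1 file per sample. The aligner, the annotation and the strand setting are not given in the sources used here, so reads of overlapping and antisense genes could not be told apart. Nothing in the labels says how samples relate beyond group, number and sequencing lane, so p-values measure the spread between these samples.

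Of 48709 identifiers, 48349 matched GENCODE M21, which gave symbols, coordinates and exon lengths. Counts were filtered (edgeR's filterByExpr, minimum count 10), scaled by TMM and tested with the edgeR 4.0.16 quasi-likelihood test in R 4.3.3, using all 8 samples and group as the only term, where the study used DESeq2. Adjusted p is Benjamini-Hochberg over 16525 genes, called under 0.05. Exact permutation tests were two-sided. The floor of 3 counts covers counting error only. Log2 ratios were taken per kilobase of exon.

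Members and gene lists were chosen with earlier results of these data known. Named related genes were up to 3 called genes with the smallest p in each direction of each list, with Pcna, Usp7, Hells, Uhrf2, Tdg, Chd4 and Mki67 named whatever their result; 1 further gene of that rule is not reported here. Ehmt2, Xrcc1, Chd3, Hdac2, Gadd45b, Cdk1, Bub1, Birc5, Ccne2, Neurog2, Sstr2, Pax6, Vim, Tubb3, Penk, Rgs9, Drd2, Tac1 and Ppp1r1b were added after their values were seen. Alternatives were DESeq2 1.42.0, limma-voom 3.58.1, other scalings and filters, replicate and lane blocks, an offset for GC content and length, and leaving out libraries. Length by the longest transcript and ratios without single libraries were added after seeing the data. The scripts were tested on simulated counts with 200 genes changed 2-fold, a larger change in a smaller share of genes than in these data. False calls were 4.35% with edgeR, 4.38% with limma-voom, 8.43% with the replicate block and 14.1% with DESeq2. Of the changed genes 77% were found with edgeR, 76.5% with limma-voom, 76% with the replicate block and 82.5% with DESeq2. Smaller changes were not simulated.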

Additional observations from a re-analysis of the deposited data

How the results depend on the processing

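Over 19 alternatives, Dnmt3b and Uhrf1 kept their direction and side of the threshold, and Tet3 kept its direction in all and its call in 18. The offset for GC content and length left 0 of the 9 genes lower and turned Dnmt1 to 0.02, Dnmt3a to 0.19, Tet1 to 0.03 and Mbd2 to -0.03 (log2 fold change). Scaling by library totals moved the median of all genes by 0.12, turned Dnmt3a to 0.06, Tet1 to 0.06 and Mbd3 to 0.02, and gave 39 related genes higher; lower genes were 31.4% of its calls against 50.4% with TMM. Lane 5 alone gave Tet2 -0.02 and Mbd3 0.01, 14 related genes higher and 1951 of all genes higher against 3074. Without dcKO replicates 1 and 2, Dnmt3a was 0.07 and Tet2 -0.14, with 10 related genes higher, and 1388 higher and 1581 lower genes in all. None of these reversed values had an adjusted p under 0.05. The cause of these shifts was not tested.

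Leaving out 1 library gave 1 to 2 of the 9 genes lower (2, with Dnmt1, without dcKO replicate 4), and log2 fold changes of -0.13 to 0.02 for Dnmt3a, -0.14 to 0.00 for Tet1 and -0.07 to 0.13 for Tet2. It gave 16 to 25 related genes higher and 6 to 11 lower, and 2199 to 3308 higher and 2375 to 3273 lower genes in all.

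Deviations of same-numbered samples correlated at 0.171, -0.0679, 0.213 and -0.0238, and those of differently numbered samples at -0.314 to 0.255. With 4 samples per group, and lanes shared by number, these values cannot show whether the numbers pair the samples. With the replicate block 1 of the 9 genes was lower and 0 higher (Tet3 -0.42, adjusted p = 0.00778), 9 related genes were lower and 21 higher, and 2982 genes were lower and 2932 higher in all. Dnmt3b had the fewest reads of the 9 genes, and 11 of 18 germline genes were too low to test.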
